A study of Nannochloropsis oceanica with 8 samples.

Results

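Of 6185 ChIP-seq peaks in the marine oil-producing alga *Nannochloropsis oceanica*, strain IMET1, 417 (6.74%) carried a middling level of the histone mark Kbu at high CO2 and held that level after a switch to low CO2. They were chosen by their Kbu values and width. The level of a library at a peak is its pileup, the height of stacked ChIP reads, divided by the lowest control background value of that library in the table. A peak was taken if it was 600 to 1499 bp wide, if its Kbu level at high CO2 was at least 2 and under 5 in both libraries, and if its mean Kbu level at low CO2 was at least 0.9 times that at high CO2. Width was met by 5267 peaks, width and level by 4356, and all criteria by 417, called kept peaks here. The 3939 peaks of the same width and high-CO2 level whose Kbu ratio was under 0.9 are called the other mid-level peaks.

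The low-CO2 cultures were aerated with 0.04% CO2 and sampled 24 h after the switch, and the high-CO2 cultures stayed at 5% CO2 for the same time. Both came from the same seed cells and shared a buffered f/2 medium and continuous light, and no mutant or drug was used. At each CO2 level 3 cultures were grown, and each mark has 2 libraries per level whose culture of origin is not labelled. The p-values below therefore reflect how far these libraries scatter, and that scatter may be technical. The antibody lot numbers labelled for the 4 H3K9me2 libraries are consecutive, and whether different lots were used is not known.

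Kbu commonly stands for lysine butyrylation, one of the short acyl groups put on histones, whose donor, butyryl-CoA, belongs to fatty acid metabolism. Acyl marks on histones generally accompany open, transcribed chromatin. H3K9me2, dimethylation of lysine 9 of histone H3, is a mark of repressed chromatin and silenced repeats in many eukaryotes. The peaks are given by their names and positions in the deposited tables. The build of the genome was not stated in the labels, and genes and sequences at the peaks were not analysed here.

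At the kept peaks the median Kbu level was 3.14 ± 0.12 at low CO2 and 3.05 ± 0.0052 at high CO2 (mean and SD of 2 library medians each). At the other mid-level peaks it was 2.52 ± 0.056 at low CO2 and 3.77 ± 0.0074 at high CO2. These values chose the kept peaks and are a description. The Kbu ratio, low over high CO2, had a median of 0.982 among the kept peaks, with quartiles of 0.935 and 1.07 and a highest value of 2.14. Over all 6185 peaks its median was 0.693. The ratio was at least 1 at 180 kept peaks and under 1 at 237. In 110 of them both low-CO2 Kbu libraries lay above both high-CO2 libraries. Just inside the threshold lay peak4643 (chromosome 4, 819067 to 820251, ratio 0.9003) and peak375 (chromosome 10, 179379 to 180130, ratio 0.9003). Just outside it lay peak1956 (chromosome 17, 445004 to 445604, ratio 0.8997) and peak2019 (chromosome 17, 726826 to 727726, ratio 0.8987).

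The word kept holds on this scale and not against the local control. Relative to its lowest value, the control at the kept peaks had a median of 3.22 ± 0.034 in the low-CO2 Kbu columns and 1.31 ± 0.041 in the high-CO2 ones (SD of 2 library medians). Kbu pileup over control was therefore 0.959 ± 0.045 at low CO2 and 2.37 ± 0.11 at high CO2. It exceeded the control in both low-CO2 libraries at 148 of the 417 kept peaks (35.5%) and at 155 of the 3939 other mid-level peaks (3.94%). In both high-CO2 libraries it exceeded the control at all 417 and all 3939. The values in the authors' deposited Kbu table are pileup over control, further divided by a factor of the library. For Kbu the factor was 0.713 and 0.752 at low CO2 and 3.13 and 3.20 at high CO2. Of the kept peaks, 207 are marked there as loss, which means lower at high than at low CO2, and 0 as gain. A loss therefore includes that rescaling, as median pileup over control at the kept peaks was itself lower at low CO2. Loss is the status of 15.6% of all peaks there. That table rests on the same Kbu libraries as the choice of peaks, and nothing is read from the count.

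At the median kept peak 202 and 130 Kbu reads were stacked at low CO2, and 669 and 486 at high CO2. For H3K9me2 there were 78 and 42 reads at low CO2 and 53 and 30 at high CO2. Counting error alone was thus 11.3% to 18.3% for H3K9me2 at 1 such peak, and 3.87% to 8.77% for Kbu. Total depths cannot be read from the tables and are unknown.

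H3K9me2, which played no part in the choice, was higher at low CO2 at many kept peaks. Its level rose at 63 of the 417 (15.1%), stayed short of the threshold at 354 and fell at 0. The test was limma on the 4 H3K9me2 libraries and all peaks, two-sided, with a Benjamini-Hochberg adjusted p under 0.05. Over all 6185 peaks 4.92% rose and 0 fell. At an unadjusted p under 0.05, 177 kept peaks (42.4%) were higher and 0 lower, against 1158 of all peaks (18.7%) higher and 21 lower. Among the other mid-level peaks 66 of 3939 (1.68%) rose. The control values of both marks were identical at 95.3% of peaks in low-CO2 replicate 1, at 2 peaks in low-CO2 replicate 2 and at 0 in both high-CO2 replicates. Their log2 values correlated closely across peaks in every pair of columns, with the lowest correlation, 0.9796, in high-CO2 replicate 2. The level uses only the lowest control value of each library. The share that rose also depends on the scale that chose the peaks. With low-CO2 Kbu scaled to the high-CO2 median, peaks of lower Kbu ratio entered and 3108 met the rule. Of these, 117 (3.76%) rose in H3K9me2, a share below that of all peaks.

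The calls rested on having both libraries of each group. Without 1 library, 3 kept peaks passed (without high-CO2 replicate 1), 1 (without high-CO2 replicate 2), 0 (without low-CO2 replicate 1) and 0 (without low-CO2 replicate 2). Over all peaks 20, 22, 0 and 0 passed in the same order. When each pileup was instead scaled to the bulk of the peaks, 52 kept peaks rose (12.5%) and 1 fell, against 3.99% and 1.03% of all peaks. All 52 were among the 63. With a library left out on that scale, 25 to 32 kept peaks rose, 5.995% to 7.67% of them, where 2.30% to 2.54% of all peaks did. Leaving out a library leaves 1 in its group, which is then assumed to vary like the 2 libraries of the other group.

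In single libraries, the median H3K9me2 level of the kept peaks was 1.69 and 1.82 at low CO2 and 1.34 and 1.49 at high CO2. For the other mid-level peaks it was 1.48 and 1.65 at low CO2 and 1.32 and 1.44 at high CO2. The medians of the 2 sets thus lay close together in both high-CO2 libraries and further apart in both low-CO2 libraries. The quartiles of the sets still overlapped at low CO2, with 1.50 to 1.93 against 1.37 to 1.63 in replicate 1. The median log2 change of the kept peaks, low minus high CO2, was 0.32, with quartiles of 0.15 and 0.48. That of the other mid-level peaks was 0.15, and that of all peaks 0.17. Relative to the shift of all peaks, the kept peaks were higher by 0.15 on the level, by 0.15 on the pileup scaled to the bulk and by 0.26 on the deposited normalised value. Both low-CO2 libraries lay above both high-CO2 libraries at 284 kept peaks (68.1%), against 45.9% of all peaks. Both lay below at 7 kept peaks (1.68%), against 3.78% of all peaks.

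**Figure D1:**
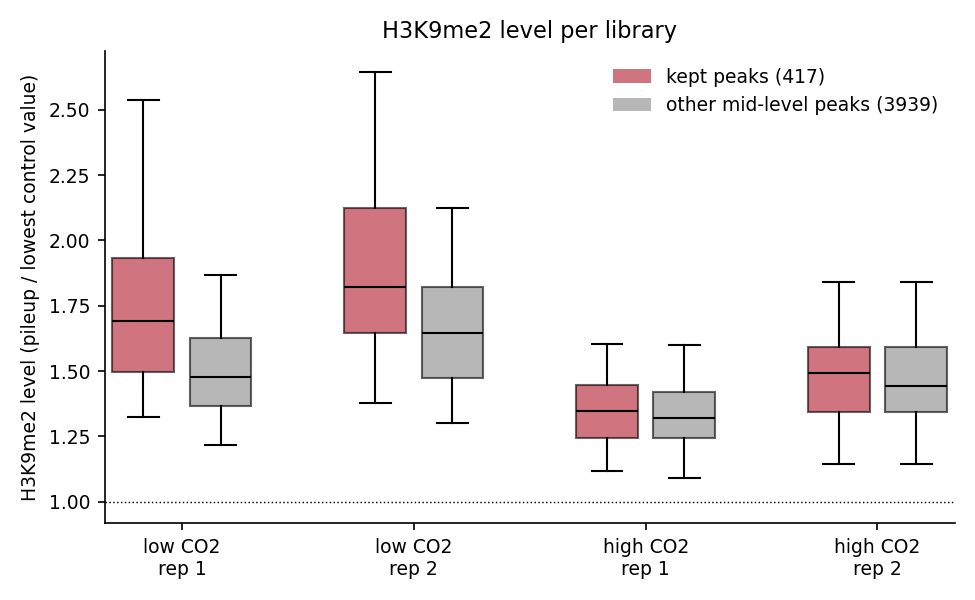
H3K9me2 level (pileup over the lowest control value of the library) in each of the 4 H3K9me2 libraries, for the 417 kept peaks (red) and the 3939 other mid-level peaks (grey). Boxes span the quartiles with the median as a line, whiskers reach the lowest and highest 5%, the dotted line marks a level of 1, and the axis does not start at 0. The red medians lie above the grey ones in both low-CO2 libraries (1.69 and 1.82 against 1.48 and 1.65), where the boxes overlap in part. At high CO2 the boxes overlap almost fully.

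A mean H3K9me2 level of at least 2 was reached at 107 kept peaks (25.7%) at low CO2 and at 1 at high CO2. The other mid-level peaks reached it at 110 of 3939 (2.79%) at low CO2 and at 0 at high CO2. Over all peaks it was reached at 490 (7.92%) at low CO2 and at 11 (0.178%) at high CO2. Even so, H3K9me2 pileup seldom stood above the local control at low CO2. It did so in both low-CO2 libraries at 7 kept peaks (1.68%), against 2.60% of all peaks. In both high-CO2 libraries it did so at 244 kept peaks (58.5%), against 56.2% of all peaks. H3K9me2 pileup over control at the kept peaks was 0.541 ± 0.023 at low CO2 and 1.12 ± 0.096 at high CO2 (mean and SD of 2 library medians). On that measure H3K9me2 was thus lower at low CO2, opposite to the level. Of the 63 kept peaks that rose, 5 had H3K9me2 above control in both low-CO2 libraries. The control at the 63, over its lowest value, had a median of 4.10 at low CO2 and 1.34 at high CO2. At the 354 that did not pass it was 3.18 at low CO2 and 1.25 at high CO2, and the part of the control in the result was not tested. The deposited normalised value divides by the control and then by a factor of the library. For H3K9me2 the factor was 0.382 and 0.425 at low CO2 and 1.04 and 1.19 at high CO2. A rise on this value therefore includes that rescaling, as pileup over control itself was lower at low CO2. On it 164 kept peaks rose (39.3%) and 11 fell (2.64%), against 24.5% and 12.1% of all peaks. Of the 63, 36 also rose on that value and 1 fell. In the authors' deposited H3K9me2 table, 43 kept peaks (10.3%) are marked as loss, again meaning less at high CO2, and 0 as gain. Loss covers 7.73% of all peaks in that table. Of the 63 that rose on the level, 20 are marked as loss. By the authors' own comparison at an adjusted p under 0.05, 21 kept peaks (5.04%) were lower at high CO2. That share was close to the 4.79% of all peaks. An adjusted p is given there for 37.4% of the kept peaks and 16.6% of all peaks.

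H3K9me2 at low CO2 was graded with the Kbu ratio, while at high CO2 it was level. Among mid-level peaks with a Kbu ratio under 0.6 (952 peaks), the median H3K9me2 level was 1.53 at low CO2 and 1.41 at high CO2, and 9 (0.945%) rose. From 0.6 to 0.7 (1252 peaks) it was 1.56 and 1.41, and 9 (0.719%) rose. From 0.7 to 0.8 (1138 peaks) it was 1.57 at low and 1.39 at high CO2, with 25 (2.20%) risen, and from 0.8 to 0.9 (597 peaks) 1.59 and 1.39, with 23 (3.85%) risen. None of these peaks is a kept peak.

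Within the kept peaks the gradient went on. Those with a ratio of 0.9 to 1 (237 peaks) had a median H3K9me2 level of 1.68 at low CO2 and 1.395 at high CO2, and 25 (10.5%) rose. Those of 1 to 1.2 (127 peaks) had 1.80 at low and 1.41 at high CO2, and 16 (12.6%) rose. Those of 1.2 or more (53 peaks) had 2.17 at low and 1.45 at high CO2, and 22 (41.5%) rose. The median low-CO2 control over its lowest value was 3.18, 3.24 and 3.29 in these classes, in the same order. The classes next to the threshold did not part sharply: 16 of 147 kept peaks with a ratio under 0.95 rose, and 16 of 241 mid-level peaks with a ratio of 0.85 to 0.9. The control columns of both marks are close to each other, as given above, and the classes are given as values with no test across them.

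**Figure D2:**
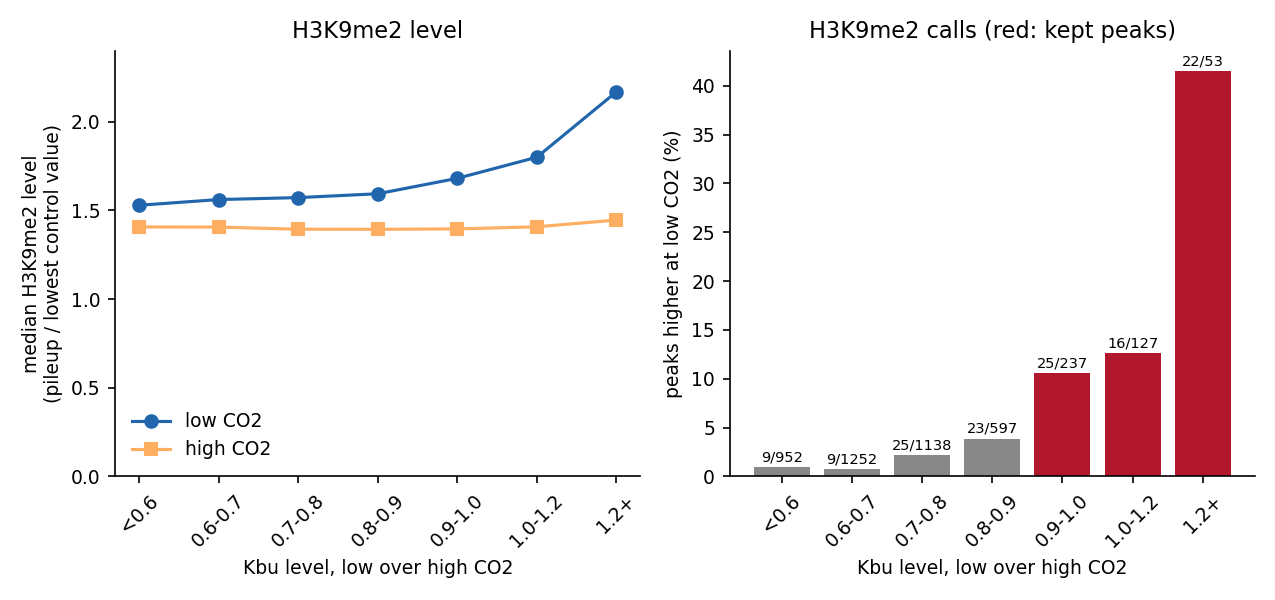
Left, median H3K9me2 level (pileup over the lowest control value) at low CO2 (circles) and high CO2 (squares) for mid-level peaks grouped by their Kbu level at low over high CO2. Right, percent of each class whose H3K9me2 level rose at low CO2 (limma adjusted p under 0.05), with counts above the bars and kept peaks in red. The low-CO2 medians run between 1.53 and 2.17 and climb with the Kbu ratio, the high-CO2 medians stay between 1.39 and 1.45, and the share that rose reaches 41.5% in the highest class.

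By width, kept peaks of 1200 to 1499 bp rose in H3K9me2 at 26 of 90 (28.9%), and other mid-level peaks of that width at 20 of 631 (3.17%). At 600 to 799 bp it was 11 of 98 kept peaks (11.2%) and 18 of 851 others (2.12%). Where the low-CO2 control was at least 4.5 times its lowest value, 23 of 65 kept peaks (35.4%) rose and 21 of 643 others (3.27%). Where it was under 2.5 times, 8 of 87 kept peaks (9.20%) rose and 4 of 449 others (0.891%). From 2.5 to 3.5 times 11.7% of kept peaks rose, and from 3.5 to 4.5 times 12.7% (others 1.31% and 1.57%). By high-CO2 Kbu level, 25 of 117 kept peaks of 3.5 or more rose (21.4%) and 44 of 2527 others (1.74%). Below that there was no steady trend. Of kept peaks 14.5% rose at a level of 2 to 2.5, 11.3% at 2.5 to 3 and 13.3% at 3 to 3.5. The others had 2.67%, 0.481% and 1.89% in the same order. By Kbu over the control, 24 of the 148 kept peaks above it in both low-CO2 libraries rose (16.2%), and 39 of the other 269 (14.5%). Kept peaks had a median width of 1009 bp, and the other mid-level peaks 1040 bp. The class of 1000 to 1199 bp, the commonest among the others (40.8%), held 28.8% of the kept peaks.

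The strongest H3K9me2 of any kept peak was at peak749 (chromosome 11, 805408 to 806535). Its H3K9me2 level was 7.77 and 7.93 at low CO2 and 4.14 and 3.53 at high CO2. Both groups stand far above the other kept peaks, and it is the kept peak with a level of at least 2 at high CO2. The log2 change was 1.02 (SE 0.14, limma adjusted p = 0.00012), and its H3K9me2 was 3.20 times the local control at low CO2 and 2.87 times at high CO2. It is also the kept peak with the third-highest Kbu ratio, with Kbu levels of 4.05 and 4.94 at low CO2 and 2.36 and 2.34 at high CO2. Peak748, 689 bp before it and too low in Kbu at high CO2 to be a kept peak, had a mean H3K9me2 level of 6.53 at low CO2 and 3.49 at high CO2 (limma adjusted p = 0.0021), and a Kbu level of 2.997 at low CO2 and 0.736 at high CO2. The peak on the other side, peak750, had 1.44 at low CO2 and 1.21 at high CO2 in H3K9me2. These neighbours were named after their values were seen.

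The largest H3K9me2 rise among kept peaks was at peak2708 (chromosome 2, 1456314 to 1457367). Its H3K9me2 level was 2.41 and 3.12 at low CO2 and 1.04 and 0.796 at high CO2. The low-CO2 libraries stood at least 2-fold above both high-CO2 ones, and the log2 change was 1.49 (SE 0.18, limma adjusted p = 4.2e-05). Its Kbu level was 3.80 and 4.10 at low CO2 and 2.05 and 2.32 at high CO2. Peak5456 (chromosome 7, 389227 to 390336) had H3K9me2 levels of 3.21 and 3.64 at low CO2 and 1.24 and 1.29 at high CO2. Its log2 change was 1.36 (SE 0.17, limma adjusted p = 5.4e-05), and it is the kept peak that passed without either high-CO2 replicate (adjusted p = 0.047 and 0.038 in limma). Its low-CO2 control was among the highest, at 7.43 times the lowest value, and on the deposited normalised value its change of 0.42 did not pass (adjusted p = 0.078). Without high-CO2 replicate 1, peak749 and peak2708 also passed (adjusted p = 0.036 each).

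Peak1584 (chromosome 15, 506048 to 506788) had H3K9me2 levels of 3.82 and 3.51 at low CO2 and 1.65 and 1.54 at high CO2. The groups lie far apart, by 1.15 on the log2 scale (SE 0.17, adjusted p = 0.00023 in limma), although its Kbu ratio was 1.00. The peak before it, peak1583, 7069 bp away and also named after its values were seen, was higher still in H3K9me2, with 5.50 at low CO2 and 2.88 at high CO2 (adjusted p = 0.0017). Peak5344 (chromosome 6, 1175374 to 1176305) had H3K9me2 levels of 3.51 and 4.12 at low CO2 and 1.78 and 1.74 at high CO2, a log2 change of 1.07 (adjusted p = 0.00053, limma). Its Kbu level was low in every library, with 2.00 and 2.21 at low CO2 and 2.29 and 2.18 at high CO2. Its H3K9me2 was 1.71 times the local control at low CO2, where peak4734 had 1.43, peak2708 1.14 and peak1584 1.01.

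Of the other named rises, 3 had log2 changes between 1.06 and 1.11. Peak2225 (chromosome 19, 85037 to 86369) had H3K9me2 levels of 3.21 and 2.73 at low CO2 and 1.40 and 1.24 at high CO2, a log2 change of 1.11. Peak5537 (chromosome 7, 731607 to 732347) had 2.54 and 2.86 at low CO2 and 1.09 and 1.34 at high CO2, a change of 1.09. Peak4734 (chromosome 4, 1229284 to 1230238) had 2.82 and 3.25 at low CO2 and 1.27 and 1.54 at high CO2, a change of 1.06. In all 3 the low-CO2 libraries lay clear of the high-CO2 ones, with limma adjusted p between 0.00044 and 0.00071. Peak6137 (chromosome 9, 954083 to 955508) had the sixth-highest low-CO2 level, with 2.71 and 3.25 at low CO2 and 1.45 and 1.79 at high CO2 (change 0.84, adjusted p = 0.0064). On the level, 0 kept peaks fell in H3K9me2.

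**Figure D3:**
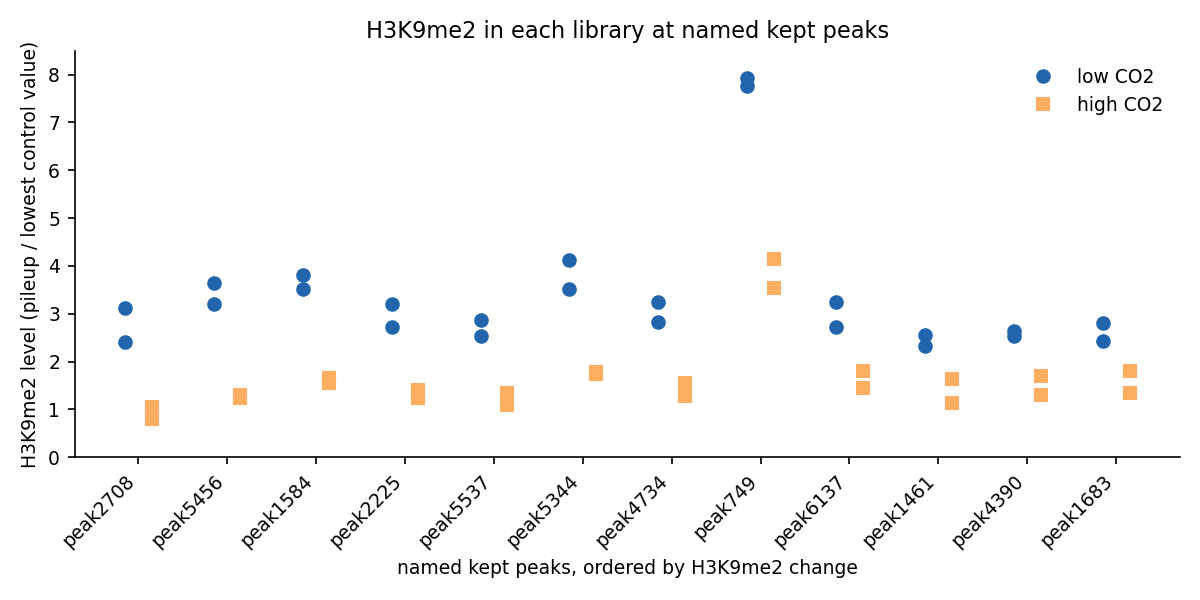
H3K9me2 level (pileup over the lowest control value) in each library at low CO2 (circles) and high CO2 (squares), for 12 kept peaks with the largest H3K9me2 rise, the highest low-CO2 H3K9me2 level or the highest Kbu ratio, ordered by H3K9me2 change. In every one the 2 low-CO2 libraries lie above the 2 high-CO2 libraries, which was a condition of choice for those of largest rise. Peak749 stands out at both CO2 levels.

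The 4 kept peaks of highest Kbu ratio all rose in H3K9me2. Peak1461 (chromosome 14, 926160 to 927585) had Kbu levels of 5.88 and 5.79 at low CO2 and 2.64 and 2.82 at high CO2, a ratio of 2.14. Its H3K9me2 level was 2.32 and 2.56 at low CO2 and 1.14 and 1.64 at high CO2 (log2 change 0.79, limma adjusted p = 0.014). Peak1683 (chromosome 16, 42601 to 44041) had a ratio of 2.03, and its H3K9me2 level was 2.80 and 2.43 at low CO2 and 1.35 and 1.79 at high CO2 (change 0.71, adjusted p = 0.025). Peak749 came next, and then peak4390 (chromosome 3, 1642707 to 1644203) with a ratio of 1.87. At peak4390 H3K9me2 was 2.54 and 2.64 at low CO2 and 1.29 and 1.69 at high CO2 (change 0.77, adjusted p = 0.013), but on the deposited normalised value its change was 0.11 (adjusted p = 0.69). Peak1461, peak1683 and peak4390 are wide for kept peaks, at 1425, 1440 and 1496 bp.

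The 4 kept peaks of lowest Kbu ratio, all near 0.9, did not pass in H3K9me2. Peak4643 had H3K9me2 levels of 1.91 and 2.30 at low CO2 and 1.50 and 1.74 at high CO2 (change 0.36, limma adjusted p = 0.27). Peak375 had 1.24 and 1.39 at low CO2 and 1.19 and 1.54 at high CO2 (change -0.05, adjusted p = 0.90), with overlapping groups. Peak6162 (chromosome 9, 1071808 to 1072559) and peak988 (chromosome 12, 781037 to 782285) changed by 0.36 and 0.34 (adjusted p = 0.25 and 0.30). Of the peaks just outside the threshold, peak2019 rose (change 0.69, adjusted p = 0.028) and peak1956 did not pass (change 0.21, adjusted p = 0.52). On the deposited normalised value it was peak1956 that passed (change 0.59, adjusted p = 0.0046) and peak2019 that did not (change 0.03, adjusted p = 0.92).

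Kept peaks stood mostly alone along the chromosomes. Of the 417, 362 had no kept peak directly before or after them, and 55 (13.2%) lay in 27 runs of neighbours: 26 pairs and 1 triplet. Of the 828 places directly next to a kept peak, 56 were held by another kept peak, which is 6.76%, against 6.73% of the neighbouring places of all peaks. Other mid-level peaks held 63.0% of those places (63.9% for all peaks). Peaks with a Kbu ratio of at least 0.9, whatever their width and level, held 13.2% (12.9% for all peaks). The gap to the nearest peak had a median of 1885 bp for kept peaks, 2099 bp for the other mid-level peaks and 2045 bp for all peaks.

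The Kbu ratio dropped back within 1 peak on either side. A drop was built in, because the rule chose the kept peaks by this ratio and not their neighbours. The ratio had a median of 0.982 at the kept peaks, 0.707 at the peak before and 0.694 at the peak after. Over all peaks the median was 0.693. The H3K9me2 change had a median of 0.32 at the kept peaks and 0.19 at the peak before and at the peak after, against 0.17 over all peaks. At 5 peaks before and after, the H3K9me2 medians were 0.16 and 0.18. Around kept peaks that rose in H3K9me2, 12 of 124 neighbouring places (9.68%) held a peak that rose too. It was 58 of 828 (7.00%) around all kept peaks and 4.82% around all peaks. The same 124 places held a Kbu ratio of at least 0.9 at 27 (21.8%), against 13.2% around all kept peaks and 12.9% around all peaks. These counts are small and the differences were not tested.

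**Figure D4:**
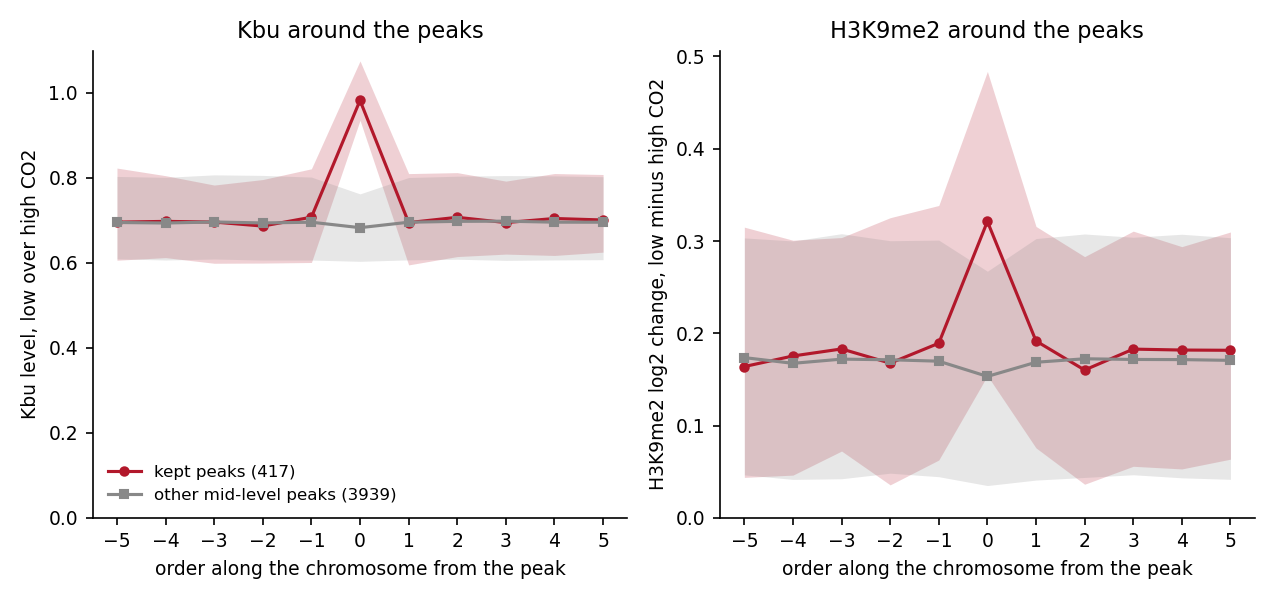
Median (line) and quartiles (band) of the Kbu level at low over high CO2 (left) and of the H3K9me2 log2 change, low minus high CO2 (right), at the kept peaks (red, at 0) and at the peaks 1 to 5 places before and after them along the chromosome. The other mid-level peaks are in grey. Kbu is 0.982 at the kept peaks by their choice and 0.707 and 0.694 at their direct neighbours, and the H3K9me2 change is 0.32 at 0 and 0.19 at both direct neighbours.

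The triplet lay on chromosome 27, and 0 of its peaks passed in H3K9me2 level. Peak3779 (290211 to 291212) had a Kbu level of 2.37 and 2.66 at low CO2 and 2.69 and 2.65 at high CO2. Peak3780 (294559 to 295482) had 2.54 and 3.11 at low CO2 and 2.62 and 3.02 at high CO2, and peak3781 (299483 to 300300) had 3.28 and 3.30 at low CO2 and 3.49 and 3.24 at high CO2. The groups overlap or nearly touch at each of the 3. Their H3K9me2 changes were 0.04, 0.01 and 0.28 (limma adjusted p = 0.91, 0.98 and 0.43). On the deposited normalised value peak3780 and peak3781 passed, with changes of 0.70 and 0.69 (adjusted p = 0.00055 and 0.00071). The pair of peak15 (123410 to 124405) and peak16 (125662 to 126593) on chromosome 1 had Kbu ratios of 0.925 and 1.18 and H3K9me2 changes of 0.20 and -0.12. The pair of peak429 (419891 to 420755) and peak430 (422565 to 423232) on chromosome 10 had ratios of 0.901 and 1.05 and changes of 0.17 and 0.33. Of these 4 peaks 0 passed (limma adjusted p between 0.27 and 0.75), and peak429 passed on the deposited normalised value (change 0.47, adjusted p = 0.026).

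Among the 55 kept peaks in runs 13 rose in H3K9me2 (23.6%), and among the 362 alone 50 (13.8%). In 12 of the 27 runs at least 1 member rose, and in 1 run every member did. That run, named after its values were seen, was peak3655 (257758 to 258992) and peak3656 (260530 to 261623) on chromosome 26. Peak3655 had H3K9me2 levels of 2.21 and 2.34 at low CO2 and 1.07 and 1.44 at high CO2 (change 0.82, limma adjusted p = 0.0070). Peak3656 had 2.08 and 2.38 at low CO2 and 1.35 and 1.39 at high CO2 (change 0.66, adjusted p = 0.024). On the deposited normalised value peak3655 did not pass (change 0.15, adjusted p = 0.57). Peak1683 and peak5344 also lay in pairs whose other member did not pass, peak1682 (change 0.36, adjusted p = 0.28, but 0.68 and 0.00092 on the deposited normalised value) and peak5345 (change 0.12, adjusted p = 0.72).

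Every one of the 30 chromosomes held kept peaks, between 2 and 31 of them. Their share of a chromosome's peaks had a median of 7.20% and quartiles of 5.75% and 7.99%. Chromosome 25 had the highest share, with 15 of 129 peaks (11.6%) and 17.0% of its mid-level peaks (9.57% over all chromosomes). Chromosome 5 came next with 30 of 324 (9.26%), and chromosome 2 had the largest number, 31 of 376 (8.24%). Chromosome 18 had the lowest share, 2 of 158 (1.27%) and 2.11% of its mid-level peaks, and chromosome 15 the next lowest, 5 of 201 (2.49%). The median Kbu ratio over all peaks of a chromosome was 0.72 on chromosome 25, 0.71 on chromosome 5 and 0.72 on chromosome 2. It was 0.68 on chromosome 18 and 0.70 on chromosome 15, and lay between 0.65 and 0.73 on all 30. Its part in the shares was not tested.

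**Figure D5:**
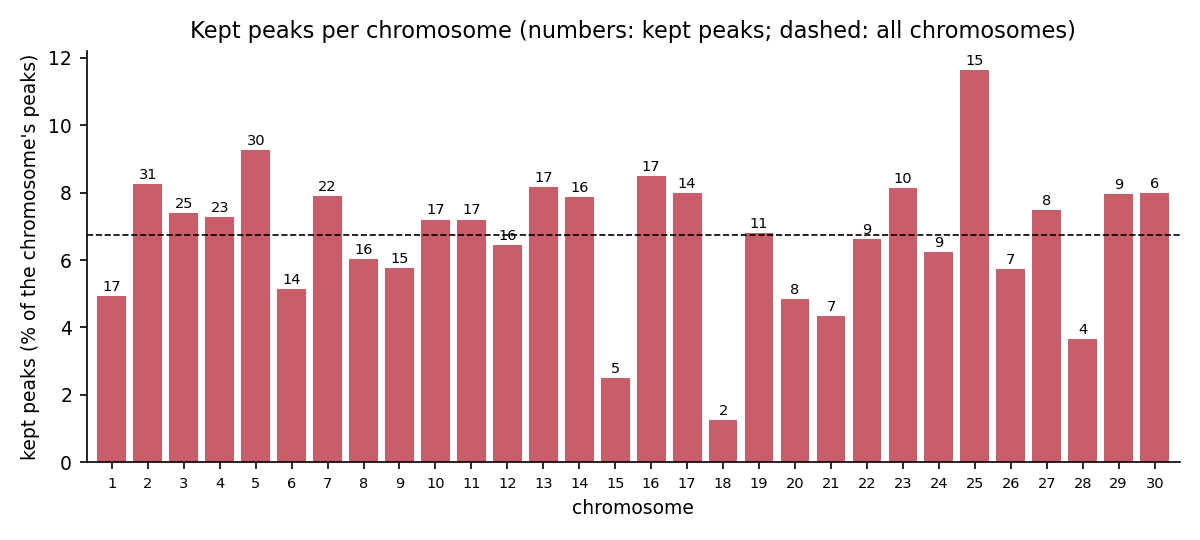
Kept peaks as a percentage of all peaks of each chromosome, with the number of kept peaks above each bar. The dashed line is the share over all chromosomes (6.74%). Chromosome 25 reaches 11.6%, and chromosomes 18 and 15 lie lowest at 1.27% and 2.49%.

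The kept peaks that rose in H3K9me2 lay on 23 chromosomes. Chromosome 2 held 8 among its 31 kept peaks and chromosome 5 held 7 among its 30, the largest numbers of kept peaks. Over all kept peaks 15.1% rose, and over all peaks 4.92%. None lay on chromosomes 17, 18, 21, 27, 28, 29 and 30, which held 14, 2, 7, 8, 4, 9 and 6 kept peaks. The median H3K9me2 change of the kept peaks was above 0 on all 30 chromosomes, lowest on chromosomes 1 and 29 (0.15 each) and highest on chromosome 26 (0.48). On chromosomes 1, 15 and 29 it did not exceed the shift over all peaks (0.17).

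At the chromosome ends, 6 of the 60 outermost peaks were kept peaks (10.0%), against 6.74% of all peaks. These were 6 of the 24 outermost peaks of mid-level (25.0%), against 9.57% of all mid-level peaks. Of the peaks second from an end 3 of 60 were kept peaks (5.00%, and 7.89% of those of mid-level). Of those more than 20 places in, 344 of 4985 were (6.90%, and 9.58% of those of mid-level). Of the 6, 2 rose in H3K9me2. Peak2749 (chromosome 20, 403 to 1421) had levels of 2.56 and 3.38 at low CO2 and 1.57 and 1.39 at high CO2 (change 0.94, limma adjusted p = 0.0026). Peak3210 (chromosome 22, 701761 to 703203) had 1.76 and 2.34 at low CO2 and 1.12 and 1.39 at high CO2 (change 0.66, adjusted p = 0.035). Both were named after their values were seen, and their low-CO2 control was 6.26 and 4.87 times its lowest value. On the deposited normalised value, which divides by it, neither passed (changes 0.35 and 0.24, adjusted p = 0.14 and 0.35).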

How the data were processed

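H3K9me2 and Kbu ChIP-seq libraries (1 sample per library, 8 in all) were analysed from tables of 6185 peaks. Per the submitters' processing notes Trim Galore, BWA, Picard, deepTools and MACS2 were used. Of their versions and settings, of the build and of the peak calling nothing is given in the sources used here. The authors deposited, per the file headers, a pileup signal and a control background signal (lambda) per library, and a normalised signal. Within 1%, the last is 10 times pileup over background, rounded down and divided by a factor of the library, at 100% of peaks. The authors also deposited their own comparison: a log2 fold change, a test score, raw and adjusted p-values and a status. Of these the status is printed here, and for H3K9me2 also counts by adjusted p.

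None of these is a count. In each library 100% of pileups were multiples of what 1 read is worth (within 0.1 read), so reads at a peak could be counted; intervals from them cover counting error only. Low over high CO2 was tested for H3K9me2 with limma 3.58.1 under R 4.3.3, with a trended empirical Bayes spread, on log2(level + 0.1) of the 4 H3K9me2 libraries and all peaks, with no filter and no replicate block. Fold changes on this scale understate changes at low levels. A 2 against 2 exact permutation test cannot go below p = 0.333, so none was used. Kbu was not tested, because its 4 libraries chose the peaks. The level takes the lowest control value as genome background, an assumption. The remaining steps ran in Python 3.11.15 (pandas 2.3.3, NumPy 2.4.6, SciPy 1.17.1), with plots from Matplotlib 3.10.9.

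Named peaks were the 4 kept peaks of highest and of lowest Kbu ratio, the 6 of highest low-CO2 H3K9me2 level, the 5 with the largest H3K9me2 change past the threshold in each direction, the 3 longest runs (ties by table order), and the 2 peaks on either side of the 0.9 threshold. The kept peaks, lists and alternatives were chosen with earlier results of these data known. Alternatives were other scalings and pseudocounts, a filter on low levels, a replicate block, each library left out and other thresholds of the rule.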

Additional observations from a re-analysis of the deposited data

How the results depend on the processing

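The count of kept peaks that rose in H3K9me2 (63) was 47 to 83 with the pileup scaled to the bulk or to library totals, with pseudocounts of 0.01 and 1 and without the lowest 25% of peaks. It was 164 on the deposited normalised value (1516 of all peaks rose and 750 fell) and 160 with a replicate block (912 of all peaks rose and 10 fell). The replicate numbers are shared by the groups, and peak by peak the deviations of same-numbered libraries hardly correlated (0.042 across peaks). A correlation does not see a shift common to all peaks. The median H3K9me2 level of all peaks was higher in replicate 2 at both CO2 levels. It was 1.65 against 1.50 at low CO2 and 1.44 against 1.345 at high CO2. The labels do not say that a replicate number marks a shared culture or batch, so the block is given as an alternative. With 1 library left out, 0 to 3 kept peaks and 0 to 22 of all peaks rose. Scaled to the bulk, with 1 library left out (chosen after seeing the data), 25, 29, 31 and 32 kept peaks and 142, 142, 150 and 157 of all peaks rose, while 0 to 1 kept peaks and 7, 16, 42 and 67 of all peaks fell. Scaled to the bulk with all libraries 1 kept peak and 64 of all peaks fell, with the replicate block added 3 and 74, and scaled to library totals 2 and 69; on the deposited value 11 kept peaks fell. The median change of kept peaks (0.32) was 0.13 scaled to the bulk and 0.12 scaled to library totals, scales that take out the shift common to all peaks, and 0.26 to 0.39 with 1 library left out. A Kbu threshold of 0.8 gave 1014 kept peaks, 298 in runs and a longest run of 5. A threshold of 1.0 gave 180 and 12. The threshold in each replicate pair gave 28 in runs. With low-CO2 Kbu scaled to the high-CO2 median, 3108 peaks were kept, 2361 of them in runs of up to 15. Of these 3108, 117 (3.76%) rose in H3K9me2 with a median change of 0.18 (all peaks 4.92% and 0.17). That scaling multiplies low-CO2 Kbu by 1.44 and so admits peaks of lower Kbu ratio. The word kept and the choice of peaks thus rest on the lowest control value as the scale. For the 417 themselves, 12.5% rose with the H3K9me2 pileup scaled to the bulk, against 3.99% of all peaks. What makes the other counts move was not tested. The reads at a peak limit what H3K9me2 can show, with counting errors of up to 18.3% per library.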
